A study of Mus musculus with 33 samples.

Results

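The signalling lymphocytic activation molecule (SLAM) genes were followed across 10 groups of sorted mouse microglia. The set was defined by name and not by any measurement: Slamf1, Slamf6, Slamf7, Slamf8, Slamf9, Cd48, Cd84 and Ly9, 8 genes of the 54146 listed, and all 8 were found. RNA was sequenced in 33 libraries of microglia, the resident macrophages of the brain, and all are labelled as female C57BL/6. At 3 months, 4 libraries came from WT mice and 4 from mice lacking the transcription factor gene Irf8 (IRF8KO). The same 2 genotypes were also sampled at 9 months, beside 5xFAD mice, which carry human amyloid precursor protein and presenilin transgenes with familial Alzheimer's disease mutations, and 5xFAD mice lacking Irf8 (5xFAD/IRF8KO; 3 libraries each). Mice labelled Batf3-/- (Batf3KO) and a WT group of their own were profiled at 3 months (3 each). The conditional experiment, also at 3 months, had 3 libraries with a floxed Irf8 allele (flox) and 4 with that allele and Cx3cr1-CreERT2 (Cre), a Cre made active by tamoxifen in cells that express Cx3cr1, which include microglia and other myeloid cells. Both of its groups are labelled with tamoxifen on 5 days from postnatal day 12, and the series text adds a Rosa26 LSL-EYFP reporter and sorting of YFP-positive cells. No other group is labelled with a treatment. The labels do not give the origin of the targeted Batf3 and Irf8 alleles or their crossing history, and they tie no library to a named animal, so p-values measure the spread between libraries.

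SLAM receptors are immunoglobulin-type glycoproteins of blood cells that mostly bind their own kind on a neighbouring cell. CD48 is an exception, a lipid-anchored protein that serves as the ligand of CD244 (2B4). Several members carry tyrosine motifs in their tails that dock the small adaptors SAP and EAT-2, whereas SLAMF8 and SLAMF9 have short tails without them. In phagocytes SLAMF1 is known to promote, and SLAMF8 to restrain, the NADPH oxidase that makes reactive oxygen in phagosomes. BATF3 is a leucine zipper factor that binds AP-1 sites with JUN proteins and composite sites with IRF8 or IRF4.

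The 8 genes lie together on distal chromosome 1 (GRCm38), within 1002 kb from 171588624 to 172590568. In map order they are Ly9 (171588624 to 171607410, minus strand), Slamf7 (171632403 to 171653035, minus), Cd48 (171682009 to 171705258, plus), Slamf1 (171767127 to 171801184, plus), Cd84 (171839697 to 171890718, plus), Slamf6 (171917515 to 171953170, plus), Slamf9 (172475358 to 172478575, plus) and Slamf8 (172581758 to 172590568, minus). Batf3 lies on the same chromosome from 191097847 to 191108945 on the plus strand, so the cluster is 18.5 to 19.5 Mb away from it. Slamf7 shares 9.24% of its exon bases with 2 overlapping genes, 1 on each strand, so its reads cannot be assigned with certainty; each strand column held 49.5% to 50.1% of counts, so strand carries no information here. The other 7 genes share 0 exon bases with other genes.

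The stretches at the starts of 4 of the genes that carried the changes described below are shown, because AP-1 and interferon-response letters bear on the factors removed. They come from RefSeq (GRCm38.p6), run from 250 bases before to 30 bases after the start, and were available for 7 of the 8 genes (Ly9 was not in the table). Capitals mark TGANTCA (AP-1), GAAANNGAAA (interferon-stimulated response element) or GAGGAAGT (PU.1), searched on both strands in the 300 bases from 250 before to 50 after the start. Slamf8 spans chr1:172590539-172590818 (minus strand), Slamf1 chr1:171766882-171767161 (plus), Cd84 chr1:171839447-171839726 (plus) and Slamf9 chr1:172475110-172475389 (plus).
Slamf8: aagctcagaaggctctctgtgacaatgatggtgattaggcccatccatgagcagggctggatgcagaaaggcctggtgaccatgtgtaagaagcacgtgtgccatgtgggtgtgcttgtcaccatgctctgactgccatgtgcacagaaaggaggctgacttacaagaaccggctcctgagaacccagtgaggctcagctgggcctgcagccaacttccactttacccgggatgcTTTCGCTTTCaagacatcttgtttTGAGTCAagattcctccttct
Slamf1: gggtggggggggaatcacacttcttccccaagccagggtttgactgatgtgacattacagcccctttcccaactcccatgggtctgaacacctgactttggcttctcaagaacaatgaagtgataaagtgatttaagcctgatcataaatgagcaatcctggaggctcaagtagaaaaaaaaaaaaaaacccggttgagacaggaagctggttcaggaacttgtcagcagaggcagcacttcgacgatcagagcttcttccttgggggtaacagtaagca
Cd84: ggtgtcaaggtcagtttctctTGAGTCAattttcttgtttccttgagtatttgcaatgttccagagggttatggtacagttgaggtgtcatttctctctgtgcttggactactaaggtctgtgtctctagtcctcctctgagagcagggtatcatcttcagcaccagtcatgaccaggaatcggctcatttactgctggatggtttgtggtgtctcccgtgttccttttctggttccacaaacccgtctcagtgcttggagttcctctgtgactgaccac
Slamf9: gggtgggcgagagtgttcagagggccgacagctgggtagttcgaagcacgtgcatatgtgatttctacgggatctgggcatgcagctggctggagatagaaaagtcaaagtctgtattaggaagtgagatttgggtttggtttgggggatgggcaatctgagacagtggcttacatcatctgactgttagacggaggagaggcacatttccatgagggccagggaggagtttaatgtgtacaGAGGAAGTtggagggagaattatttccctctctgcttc
Slamf8 held the interferon-response letters on the minus strand of this window, from base -15, followed by the AP-1 letters from base 10 after the start. Of all 32851 mouse promoters of the same length, 7.81% held the AP-1 letters, 3.44% the interferon-response letters, 0.317% both, and 0.0548% both with starts within 30 bases. Cd84 and Slamf7 held the AP-1 letters alone among these motifs, and Slamf9 the PU.1 letters (3.2% of promoters). Slamf1 held none of the letters marked here, nor did Slamf6 and Cd48, which also carried calls and are not shown. A match describes the sequence and is not a bound site.

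Libraries held 605376 to 18357762 counts in genes, and the smallest was WT replicate 3 at 9 months. The groups differed in content. A list of 16 microglial genes took 9.63% to 9.84% of counts in WT and 9.63% to 9.72% in Batf3KO. In the IRF8KO experiment at 3 months its share was 2.44% to 5.88% for WT libraries and 1.02% to 1.74% for IRF8KO libraries. Irf8 in the library labelled Cre replicate 1 was at 1124 CPM, inside the flox range of 952 to 1185 CPM. It thus showed no loss of Irf8 reads, and the reason was not tested. Cre replicates 2 to 4 read 411, 346 and 480 CPM. Irf8 reads also remained in the IRF8KO libraries, at 104 to 185 CPM against 252.5 to 332 CPM in WT at 3 months and at 15.9 to 138 CPM against 499 to 582 CPM at 9 months, and at 77.6 to 98.7 CPM in 5xFAD/IRF8KO. The labels do not say which part of the gene is deleted, so these reads neither check the label nor give the amount of working Irf8, and "without Irf8" refers to the label. In bulk RNA, fewer cells of a type and less RNA per cell cannot be told apart. Levels are CPM, that is, counts brought to 1 library size across all 33 libraries, and fold changes come from each comparison's own fit.

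Per exon length, Slamf9, Cd48 and Cd84 were the most abundant members. In WT of the Batf3KO experiment their mean RPKM (CPM per kilobase of exon) was 130.2, 108 and 49.7, against 18.96 for Slamf8, 8.53 for Ly9, 3.95 for Slamf6, 1.38 for Slamf1 and 0.0285 for Slamf7. In Batf3KO Slamf8 reached 70.6 RPKM, above Cd84 at 46.2 RPKM. Slamf7 had at most 1.22 CPM in every library outside the IRF8KO experiment at 3 months, apart from 13.7 CPM in IRF8KO replicate 1 at 9 months.

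**Figure D1:**
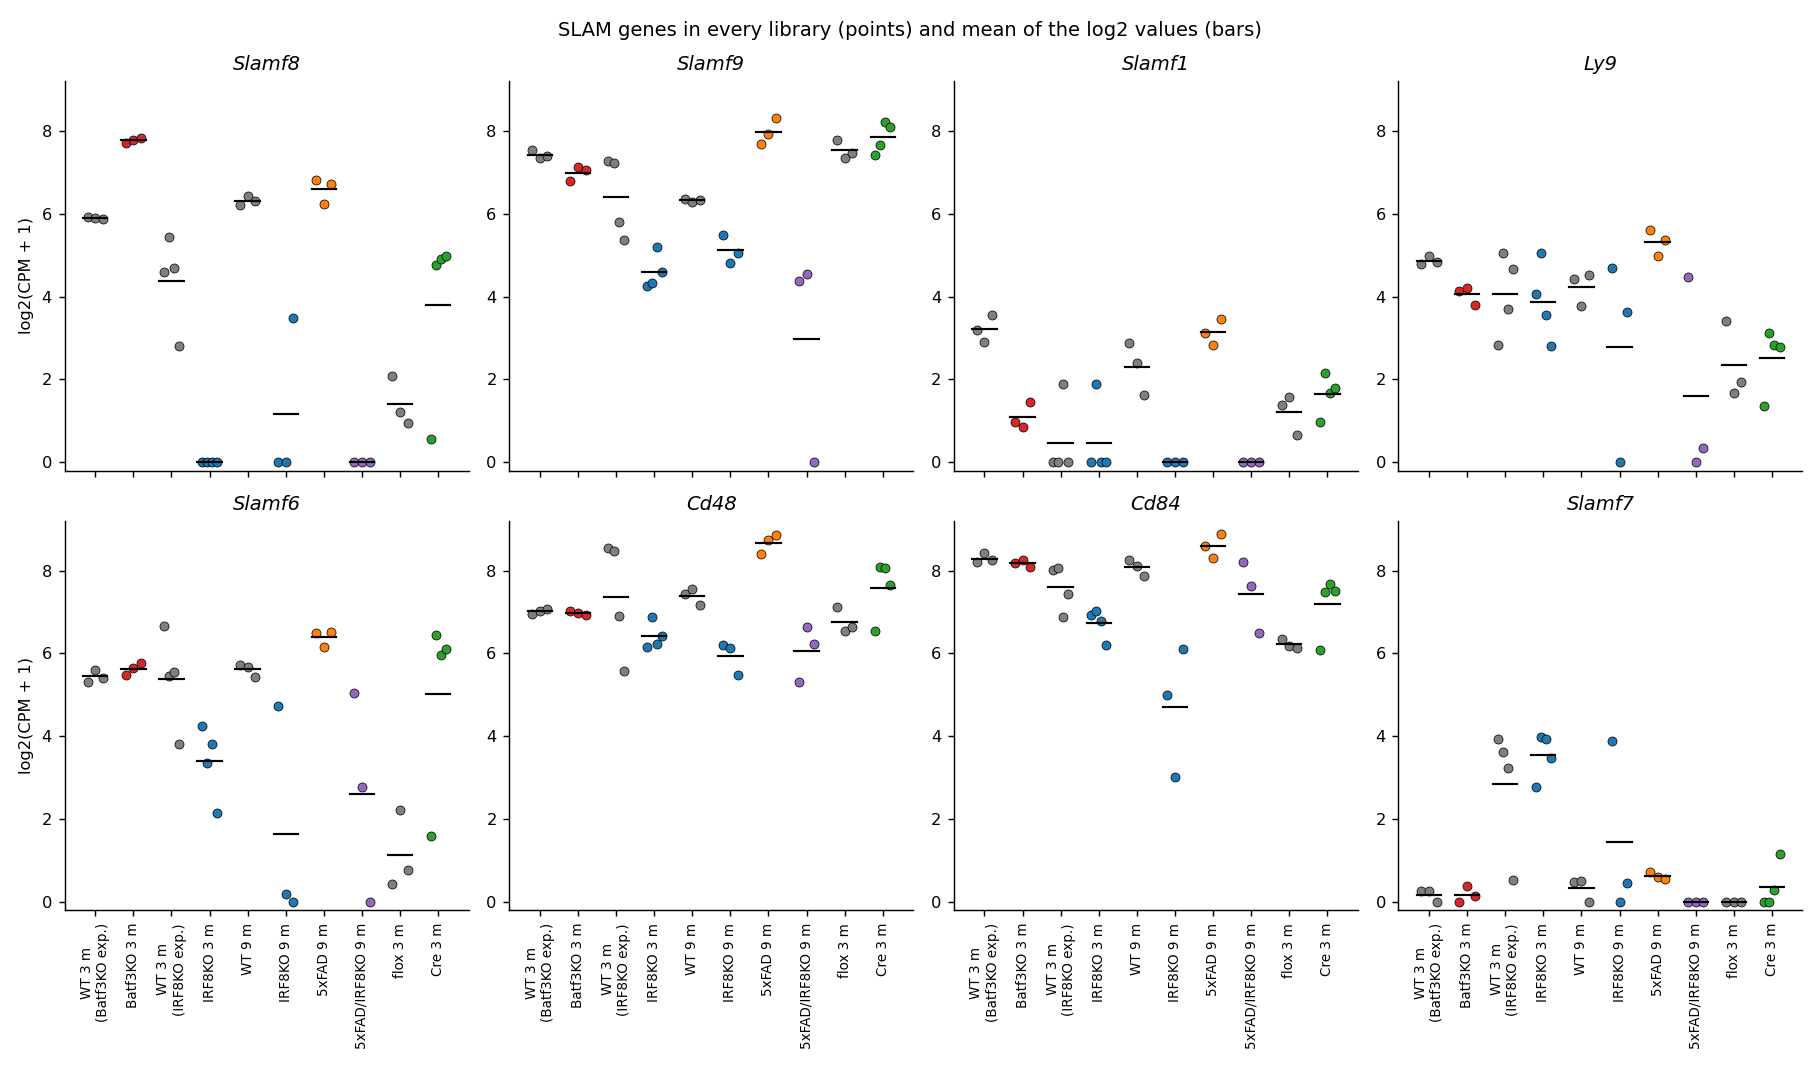
Level of each SLAM gene as log2(CPM + 1), with 1 point per library and a bar at the mean of the log2 values for each of the 10 groups. Slamf8 is highest in the 3 Batf3KO libraries, at 209 to 224 CPM, and at 0 in all 4 IRF8KO libraries at 3 months.

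In Batf3KO 4 SLAM genes changed, and not all in 1 direction. Slamf8, the member with a short tail that restrains the phagocyte oxidase, stood at 59.5, 58.2 and 57.4 CPM in the WT libraries, whereas the Batf3KO libraries held 208.5, 219 and 224 CPM. The groups lay far apart, and the mean was 3.72 times as high in Batf3KO (217 ± 8.06 against 58.4 ± 1.01 CPM, SD, n = 3 each). The log2 change was 1.95 ± 0.0815 (SE), with an adjusted p of 1.58e-08 in edgeR's quasi-likelihood test. Across the 10 groups no other group overlapped Batf3KO for Slamf8, and the next highest was 5xFAD at 96.9 CPM.

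Slamf1, the self-binding receptor that promotes oxidase activity, went the other way. The WT libraries held 8.19, 6.49 and 10.7 CPM and those of Batf3KO 0.95, 0.795 and 1.72 CPM, with no overlap. The mean was 7.33 times lower without Batf3, a log2 change of -2.80 ± 0.346 (SE; edgeR adjusted p = 0.000492).

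Ly9, a self-binding receptor of lymphocytes and macrophages, stood at 26.6, 30.5 and 27.5 CPM in the WT libraries and fell to 16.5, 17.6 and 12.99 CPM with Batf3 deleted. The groups did not overlap, and the log2 change was -0.79 ± 0.158 (SE; edgeR adjusted p = 0.0141). Its adjusted p was 0.0503 without Batf3KO replicate 1 and 0.0814 without WT replicate 2.

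Slamf9, the second member with a short tail, stood at 184.7, 161.7 and 166.6 CPM in the WT libraries and at 109.5, 137.9 and 131.1 CPM with Batf3 deleted, again without overlap. The log2 change of -0.38 ± 0.0962 (SE) was just inside the threshold, with an edgeR adjusted p of 0.0444. Leaving out any 1 of the 6 libraries ended that call, with adjusted p from 0.0587 to 0.212.

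Cd48, Cd84 and Slamf6 did not pass the test in Batf3KO. Cd48, the ligand of CD244, had 128 ± 5.02 CPM in WT and 125 ± 3.58 CPM in Batf3KO (SD, n = 3 each), and the 95% interval of its log2 change ran from -0.17 to 0.21. Cd84, a self-binding receptor, had 312 ± 25.2 and 289.6 ± 17.96 CPM, with an interval from -0.24 to 0.14. Slamf6 had 42.8 ± 4.38 and 48.8 ± 4.67 CPM, with an interval from -0.01 to 0.50. Slamf7 was too low to be tested here.

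Thus 4 of the 7 SLAM genes tested passed the threshold in Batf3KO, where 3.83% of all 13128 genes tested did. Of these 4, 1 was higher and 3 were lower, against 1.41% and 2.42% of all genes. Their median log2 change was -0.05, beside 0.0024 over all genes. The call for Slamf8 and that for Slamf1 held when any 1 library was left out, with adjusted p of at most 2.81e-06 and 0.00458. In a single model of all 33 libraries, whose shared spread includes the variable libraries of the other experiments, 0 of the 8 were called. Of the markers of other blood cells, the 13 neutrophil genes took at most 0.000516% of counts in either group, and the 12 T cell genes took 0.00262% to 0.00314% in WT and 0.00208% to 0.00326% in Batf3KO, with Cd3e, Cd3d, Cd3g, Cd4 and Cd8a at 0 in both and Il7r the highest (25.6 and 25.02 CPM). The 7 B cell genes took 0.087% to 0.0956% in WT and 0.0731% to 0.0797% in Batf3KO. Ms4a1 was at 0 in both groups, and Ighm made up most of the list, at 820.5 ± 82.1 CPM in WT and 646 ± 41.8 CPM in Batf3KO (SD, n = 3 each). The part of the B cell list in the SLAM values was not tested.

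The receptor for CD48, Cd244a, is itself a SLAM family gene beside Ly9 but was not on the list. It rose in Batf3KO, from 2.64 ± 1.74 to 9.26 ± 1.2 CPM (SD, n = 3 each; log2 change 1.86 ± 0.393 SE, edgeR adjusted p = 0.0191). It was the 1 gene called of the 16 tested from a list of 19 SLAM ligands, adaptors, kinases and oxidase subunits. Of all 13128 genes, 3.83% were called. At an unadjusted p under 0.05 the count was 7 of the 16, and DESeq2 called 4. Cybb, the catalytic subunit of the oxidase, had 3.26 ± 0.276 CPM in WT and 7.81 ± 4.59 CPM in Batf3KO (adjusted p = 0.0581).

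IRF8KO microglia also had little or no Batf3, which allowed the Batf3KO values to be set beside a second loss of that factor in mice targeted on another chromosome. Batf3 itself read 24.6, 27.7 and 23.1 CPM in the WT libraries and 0.507, 0.428 and 0.5 CPM in those of Batf3KO. In the IRF8KO experiment at 3 months, WT libraries held 70.0, 29.7, 19.99 and 24.5 CPM of Batf3 and IRF8KO libraries 2.06, 0, 1.24 and 0.364 CPM. All 6 libraries without Irf8 at 9 months had 0 counts. Batf3 was thus about as low in IRF8KO as in Batf3KO.

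Slamf8 went in the opposite direction in IRF8KO at 3 months. The WT libraries held 23.2, 42.3, 24.8 and 6.04 CPM and all 4 IRF8KO libraries had 0 counts, at least 223-fold lower when 3 counts over the IRF8KO group are taken as the floor (edgeR adjusted p = 0.00268). The difference between the Batf3KO and the IRF8KO effect passed the test for Slamf8, with an adjusted p of 0.000151 (at most 0.00142 without any 1 of the 14 libraries). It was the 1 of 8 SLAM genes tested that did, higher in Batf3KO, where 3.22% of all 16426 genes did and 1.17% were higher. DESeq2 called 3. Slamf1 was too low to be tested in IRF8KO against WT at 3 months. It had 0 counts in 3 of 4 libraries of each group, so its change in Batf3KO could not be compared there.

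Slamf9 was the second SLAM gene called at 3 months. The WT libraries held 153.8, 147.6, 54.3 and 40.04 CPM and those of IRF8KO 17.97, 19.0, 35.7 and 23.3 CPM, with no overlap (log2 change -2.13 ± 0.488 SE, edgeR adjusted p = 0.0231). That call was lost in 5 of the 8 fits without 1 library (adjusted p up to 0.0915). Slamf6 fell short of the threshold by little, with 100.3, 42.9, 46.0 and 13.2 CPM in the WT libraries against 18.2, 9.32, 13.2 and 3.46 CPM without Irf8 (log2 change -2.27 ± 0.641 SE, adjusted p = 0.0505).

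Of the 7 SLAM genes tested at 3 months, 2 were called, both lower, where 7.39% of all 13121 genes were called and 3.24% were called lower. The median log2 change of the 7 was -1.45, beside -0.02 over all genes. Cd48 (-1.45 ± 0.555 SE, adjusted p = 0.13) and Cd84 (-0.99 ± 0.353 SE, adjusted p = 0.105) also had lower means in IRF8KO, and Ly9 and Slamf7 had wide intervals on both sides of 0. DESeq2 and limma voom each called 5 of the 7.

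Library content moved with these values. The share of counts in neutrophil genes at 3 months was 0.824% to 5.25% for WT and 7.37% to 15.96% for IRF8KO libraries, with 13 of 13 genes at 5 CPM or more in IRF8KO, while the microglial list fell to the shares given above. The part of library content in the SLAM values was not tested. Slamf7, a receptor of lymphocytes and macrophages, differed between the experiments. It had 0.453 to 14.3 CPM in WT of the IRF8KO experiment and 0 to 0.197 CPM in WT of the Batf3KO experiment. The log2 difference was 5.98 ± 1.46 (SE, edgeR adjusted p = 0.00855). Slamf7 was the 1 of 8 SLAM genes called between these 2 WT groups of the same age. Of all 14621 genes, 42.8% were called (26.5% higher in the IRF8KO experiment). Slamf7 passed the filter on low counts in 4 of the 7 fits without 1 library, and was called in those 4. It passed only through WT of the IRF8KO experiment, with 26, 109, 129 and 3 counts against 3, 3 and 0. These repeated calls are therefore no separate support.

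**Figure D2:**
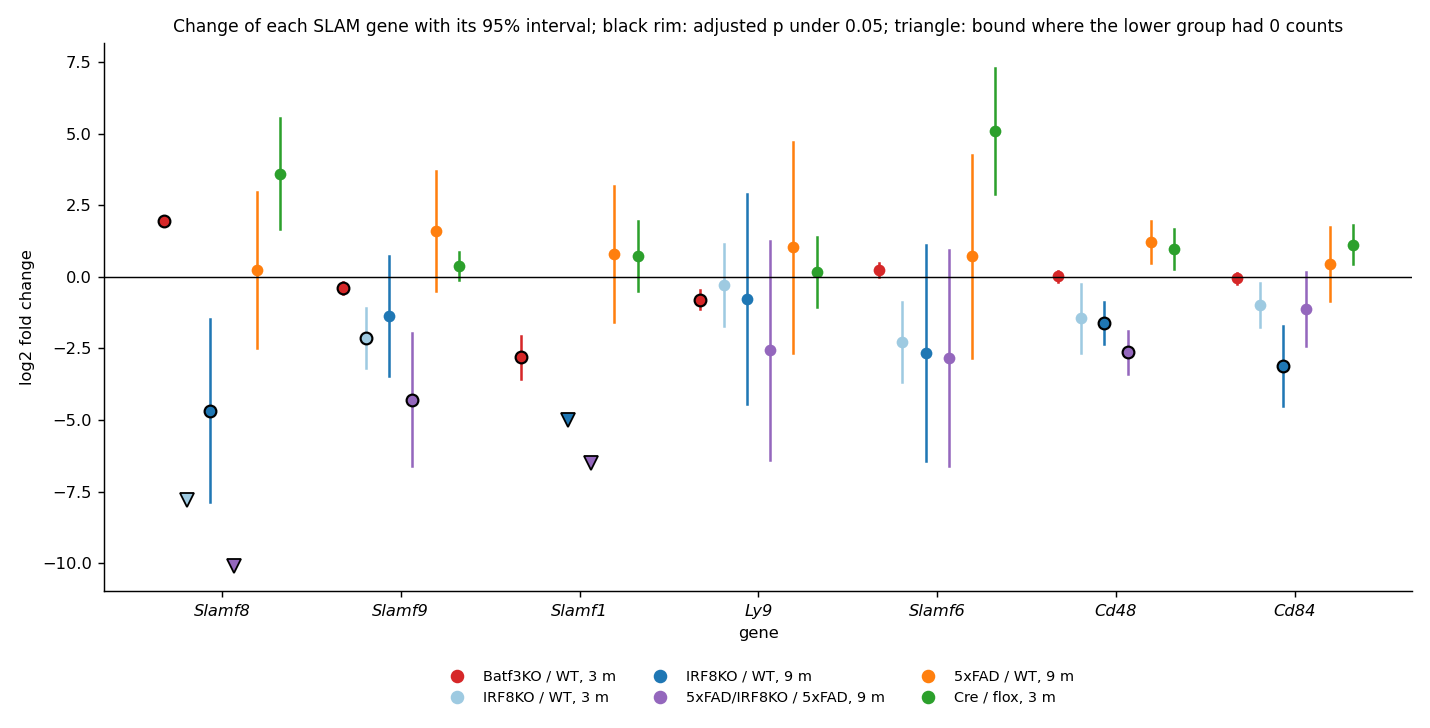
Log2 fold change of 7 SLAM genes in 6 comparisons, with the 95% interval as a line, a black rim where the adjusted p was under 0.05, and a triangle at the bound where the lower group had 0 counts. Slamf8 lies at 1.95 in Batf3KO and below 0 in the 3 comparisons of mice without Irf8.

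At 9 months 4 of the 7 SLAM genes tested fell in IRF8KO: Slamf8, Slamf1, Cd84 and Cd48. For Slamf8 the WT libraries held 73.3, 84.5 and 77.7 CPM and those of IRF8KO 0, 0 and 10.2 CPM, a log2 change of -4.67 ± 1.44 (SE; edgeR adjusted p = 0.0348). That call was lost without any 1 of the 3 WT libraries (adjusted p 0.0789 to 0.0828) and in a fit of these 2 groups alone (0.0874). Slamf1 read 6.31, 4.24 and 2.07 CPM with Irf8 and 0 counts in the 3 IRF8KO libraries, at least 31.98-fold lower (adjusted p = 0.00502).

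Cd84 and Cd48, not called in Batf3KO, fell in IRF8KO at 9 months. For Cd84 the WT libraries held 305.6, 274.6 and 234.2 CPM and those of IRF8KO 31.0, 7.13 and 68.3 CPM (log2 change -3.10 ± 0.644 SE, edgeR adjusted p = 0.00385). Cd48 read 173, 187 and 142 CPM against 72.3, 69.6 and 43.4 CPM (log2 change -1.60 ± 0.339 SE, adjusted p = 0.00427). The IRF8KO and WT libraries did not overlap for either gene.

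All 7 SLAM genes tested had lower means in IRF8KO at 9 months, 4 of them called, where 8.68% of all 14604 genes were called lower and 28.3% were called in either direction. Their median log2 change was -2.67, beside 0.25 over all genes. Slamf6, Slamf9 and Ly9 were not called (adjusted p 0.276, 0.321 and 0.78). Slamf6 rested on 1 library. IRF8KO replicates 1 to 3 read 25.5, 0.146 and 0 CPM, below the 42.5 to 51.9 CPM of the WT libraries, and its adjusted p was 0.0101 without replicate 1. Microglial genes took 8.35% to 9.15% of counts in WT and 0.552% to 1.29% in IRF8KO, and neutrophil genes at most 0.000496% and 6.36% to 8.82%; their part in these falls was not tested.

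The differences between the Batf3KO effect at 3 months and the IRF8KO effect at 9 months passed the test for 5 of 7 SLAM genes, all 5 higher in Batf3KO, where 31.1% of all 14605 genes differed and 12% were higher in Batf3KO. They were Cd48 (1.54 on the log2 scale, edgeR adjusted p = 0.00232), Cd84 (2.96, 0.0121), Slamf9 (0.90, 0.0306), Slamf8 (0.00698) and Slamf1 (0.00759). The ages differ in this contrast. Slamf9 lost its call without 8 of the 12 libraries, left out 1 at a time. The IRF8KO effects at 9 and at 3 months differed for 0 of 8 SLAM genes, where 24% of all 15512 genes differed. At an unadjusted p under 0.05 the count was 3, DESeq2 called 0 and limma voom 1.

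Amyloid-exposed microglia had higher means for all 7 SLAM genes tested, none of which passed the threshold, where 1.99% of all 14604 genes did (edgeR). At an unadjusted p under 0.05 the count was 1 (Cd48). For Slamf9 the WT libraries held 80.8, 77.2 and 78.7 CPM and those of 5xFAD 204, 241 and 317 CPM (log2 change 1.61 ± 0.962 SE, adjusted p = 0.673). Beside its WT values given above, Cd48 read 336, 429 and 467 CPM with the transgenes (1.22 ± 0.335 SE, adjusted p = 0.0966). The libraries did not overlap for either gene, nor for Slamf6, Cd84 and Ly9, beside 39% of all genes tested.

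That comparison shared its estimate of the spread with the 6 variable libraries without Irf8. In a fit of WT and 5xFAD alone, 4 SLAM genes passed: Slamf9 (edgeR adjusted p = 6.73e-05), Cd48 (0.000295), Ly9 (0.00419) and Slamf6 (0.0105), all higher in 5xFAD. That fit called 4546 of all 10452 genes tested, 2174 of them higher. DESeq2 called 1 of the 7, beside 900 of all 14604 genes, and limma voom 3, beside 3821 of all 14604. Slamf8 (96.9 ± 19.95 against 78.5 ± 5.61 CPM) and Slamf1 (7.96 ± 1.96 against 4.21 ± 2.12 CPM, SD, n = 3 each) overlapped between the groups.

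In 5xFAD/IRF8KO 4 SLAM genes fell against 5xFAD. Slamf8 and Slamf1 had 0 counts in all 3 libraries, at least 1102-fold and 90.5-fold below 5xFAD (edgeR adjusted p = 0.00267 and 0.00294). Cd48 had 38.8, 98.5 and 74.2 CPM against 336 to 467 CPM (log2 change -2.64 ± 0.35 SE, adjusted p = 0.000183), and Slamf9 19.8, 22.2 and 0 CPM against 204 to 317 CPM (-4.28 ± 1.07 SE, adjusted p = 0.0109). All 7 tested were lower with no overlap between the libraries, against 48.4% of all genes without overlap, and 4 were called, where 27.8% of all 14604 genes were called and 9.72% were called lower. Cd84 was among those not called, at 193 ± 103 CPM against 389 ± 76.9 CPM (SD, n = 3 each; adjusted p = 0.189). Microglial genes took 8.87% to 9.29% of counts in 5xFAD and 0.923% to 1.13% in 5xFAD/IRF8KO. Neutrophil genes took at most 0.000207% against 7.98% to 14.4%, and the 5 erythroid genes at most 0.000622% against 1.38% to 9.03%. Their part in these falls was not tested.

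Amyloid transgenes in mice without Irf8 gave 0 of 7 SLAM genes called, where 0.164% of all genes were called. Cd84, at 7.13 to 68.3 CPM without Irf8 alone, read 295, 196 and 88.6 CPM in the 5xFAD/IRF8KO libraries, with no overlap (log2 change 2.42 ± 0.626 SE, edgeR adjusted p = 0.144). DESeq2 called Cd84 there (adjusted p = 0.0093). The interaction of the amyloid transgenes with loss of Irf8 was called for 0 of 7, where 0.438% of all genes were called. At an unadjusted p under 0.05 the counts were 2 for the transgenes without Irf8 and 3 for the interaction, and DESeq2 called 0 for the interaction.

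In the conditional experiment 0 of 7 SLAM genes tested were called, as was 0% of all 15512 genes by edgeR. At an unadjusted p under 0.05, 4 SLAM genes passed, and DESeq2 called 2 (Slamf6 and Cd84). All 7 means were higher in Cre than in flox, with a median log2 change of 0.97 beside 0.01 over all genes. High and low values split the libraries labelled Cre. For Slamf8 the flox libraries held 3.23, 1.31 and 0.944 CPM, the library labelled Cre replicate 1 held 0.476 CPM, and those labelled Cre replicates 2 to 4 held 26, 28.8 and 30.7 CPM. For Slamf6 these values were 0.346, 3.7 and 0.708 CPM, then 2.02 CPM, then 86.3, 61.0 and 67.5 CPM. For both genes Cre replicate 1 lay in or below the flox range, far from the other Cre libraries.

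Batf3 had the same pattern. The flox libraries read 4.15, 4.36 and 1.89 CPM, the library labelled Cre replicate 1 read 1.31 CPM, and those labelled Cre replicates 2 to 4 read 32.1, 63.8 and 43.8 CPM. Without Cre replicate 1, 4 SLAM genes were called, all higher in the libraries labelled Cre. They were Slamf6 (log2 change 5.50, edgeR adjusted p = 1.36e-08), Slamf8 (4.01, 5.44e-08), Cd84 (1.39, 6.95e-06) and Cd48 (1.22, 0.000181). Each was called in this 1 of the 7 fits without 1 library. The library left out was singled out by its Irf8, Batf3 and SLAM values, so these calls are no separate support. Irf8 in the library labelled Cre replicate 1 lay within the flox range, and the reason was not tested. Directions drawn from these libraries, flox and Cre alike, rest on the labels as given, which Irf8 reads cannot check. The libraries labelled flox, given as Irf8-intact, had lower Slamf8 (0.944 to 3.23 CPM) than WT of either experiment at 3 months (6.04 to 59.5 CPM). Batf3 in flox was likewise below these WT libraries (19.99 to 70 CPM). Cd244a read 35.26 to 42.31 CPM in flox, 33.45 CPM in Cre replicate 1 and 2.954 to 6.2 CPM in Cre replicates 2 to 4. It read 0 to 31.97 CPM in these WT libraries and 43.25 to 124.7 CPM in IRF8KO at 3 months. Slamf9 and Cybb in flox (161.8 to 217.3 and 0.2306 to 0.5445 CPM) were unlike that group (17.97 to 35.65 and 577.7 to 1081 CPM). The reason was not tested. The microglial list took 6.48% to 6.69% of counts in flox and 6.61% to 10.25% in Cre, and its part in these values was not tested.

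**Figure D3:**
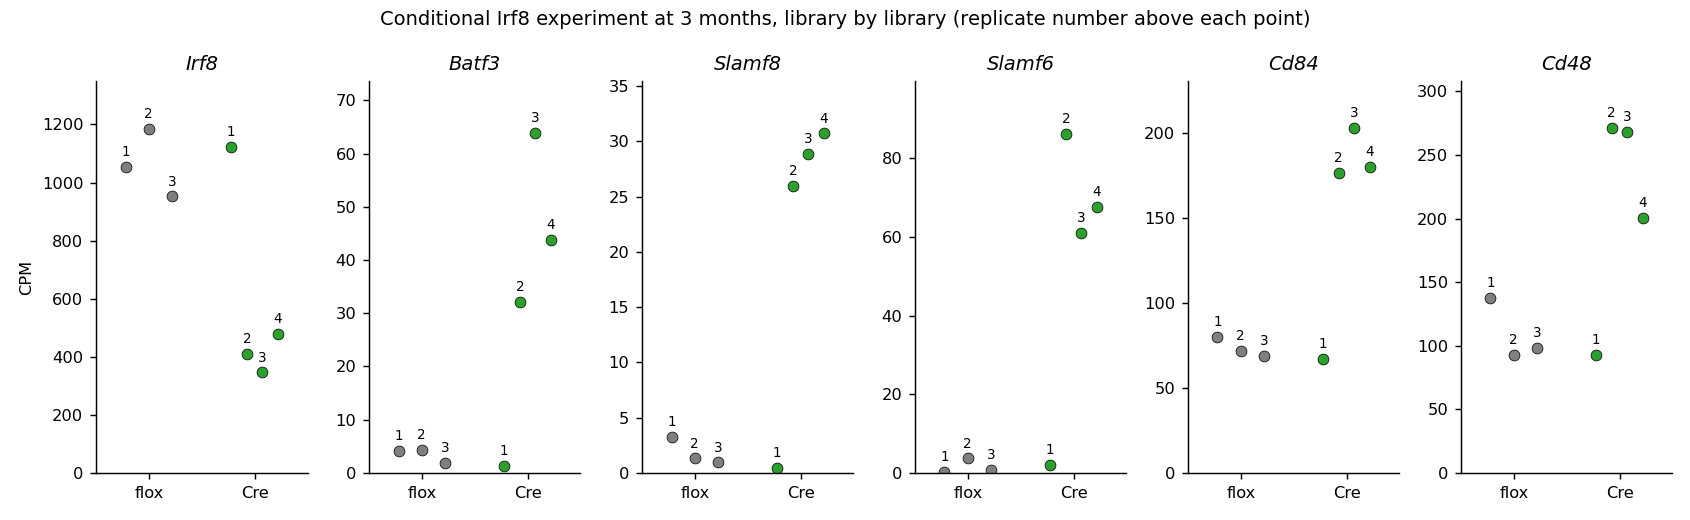
CPM of Irf8, Batf3 and 4 SLAM genes in the 7 libraries of the conditional experiment, with the replicate number above each point. The library labelled Cre replicate 1 sits with the flox libraries for all 6 genes, such as 0.476 CPM for Slamf8 against 26 to 30.7 CPM in the other Cre libraries.

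The effect of Batf3KO differed from that of the Cre libraries for 2 of 7 SLAM genes, both lower in Batf3KO, where 1.88% of all 16939 genes differed and 1.61% were lower in Batf3KO. They were Slamf1 (-3.60 on the log2 scale, edgeR adjusted p = 0.0128) and Slamf6 (-4.93, 0.0257). With each of the 13 libraries left out in turn the Slamf1 call held in 13 fits and the Slamf6 call in 6 (adjusted p up to 0.0801), and limma voom did not call Slamf6 (0.0681). Without Cre replicate 1, Slamf8 (-2.13, edgeR adjusted p = 6.64e-05), Cd84 (-1.51, 7.8e-06), Cd48 (-1.27, 0.000387) and Slamf9 (-0.98, 0.00658) passed as well. Each passed in that 1 of the 13 fits only. The library left out was singled out by values that include SLAM genes, so these calls are no separate support.

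The genes around the SLAM cluster were examined because the cluster sits on the chromosome that carries the targeted Batf3 locus. In Batf3KO, 18 of 56 tested genes that start 15 to 20 Mb from Batf3 were called, or 32.1%, against 3.66% of genes on other chromosomes and 3.32% of genes on chromosome 1 beyond 60 Mb. Without the SLAM genes the share in that bin was 28.6% (14 of 49), 7 higher and 7 lower. The bins from 0 to 5 Mb (which holds Batf3 itself), 5 to 10 Mb and 20 to 25 Mb had 9.76%, 12.5% and 14.8%. The bins from 10 to 15 Mb and 25 to 30 Mb had 0 of 38 and 0 of 28. Farther out, the bin from 30 to 35 Mb had 16.7% (5 of 30) and that from 35 to 40 Mb 2.63%. In bins of 10 Mb the share from 10 to 20 Mb was 19.1%. Chromosome 1 held 52 of the 503 genes called (10.3%) and 6.1% of the genes tested.

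The same bin did not stand out in IRF8KO. At 3 months 9.84% of its genes were called, beside 7.37% on other chromosomes, and at 9 months 33.3% beside 28.4%. Without the SLAM genes these shares were 7.41% and 30.5%.

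**Figure D4:**
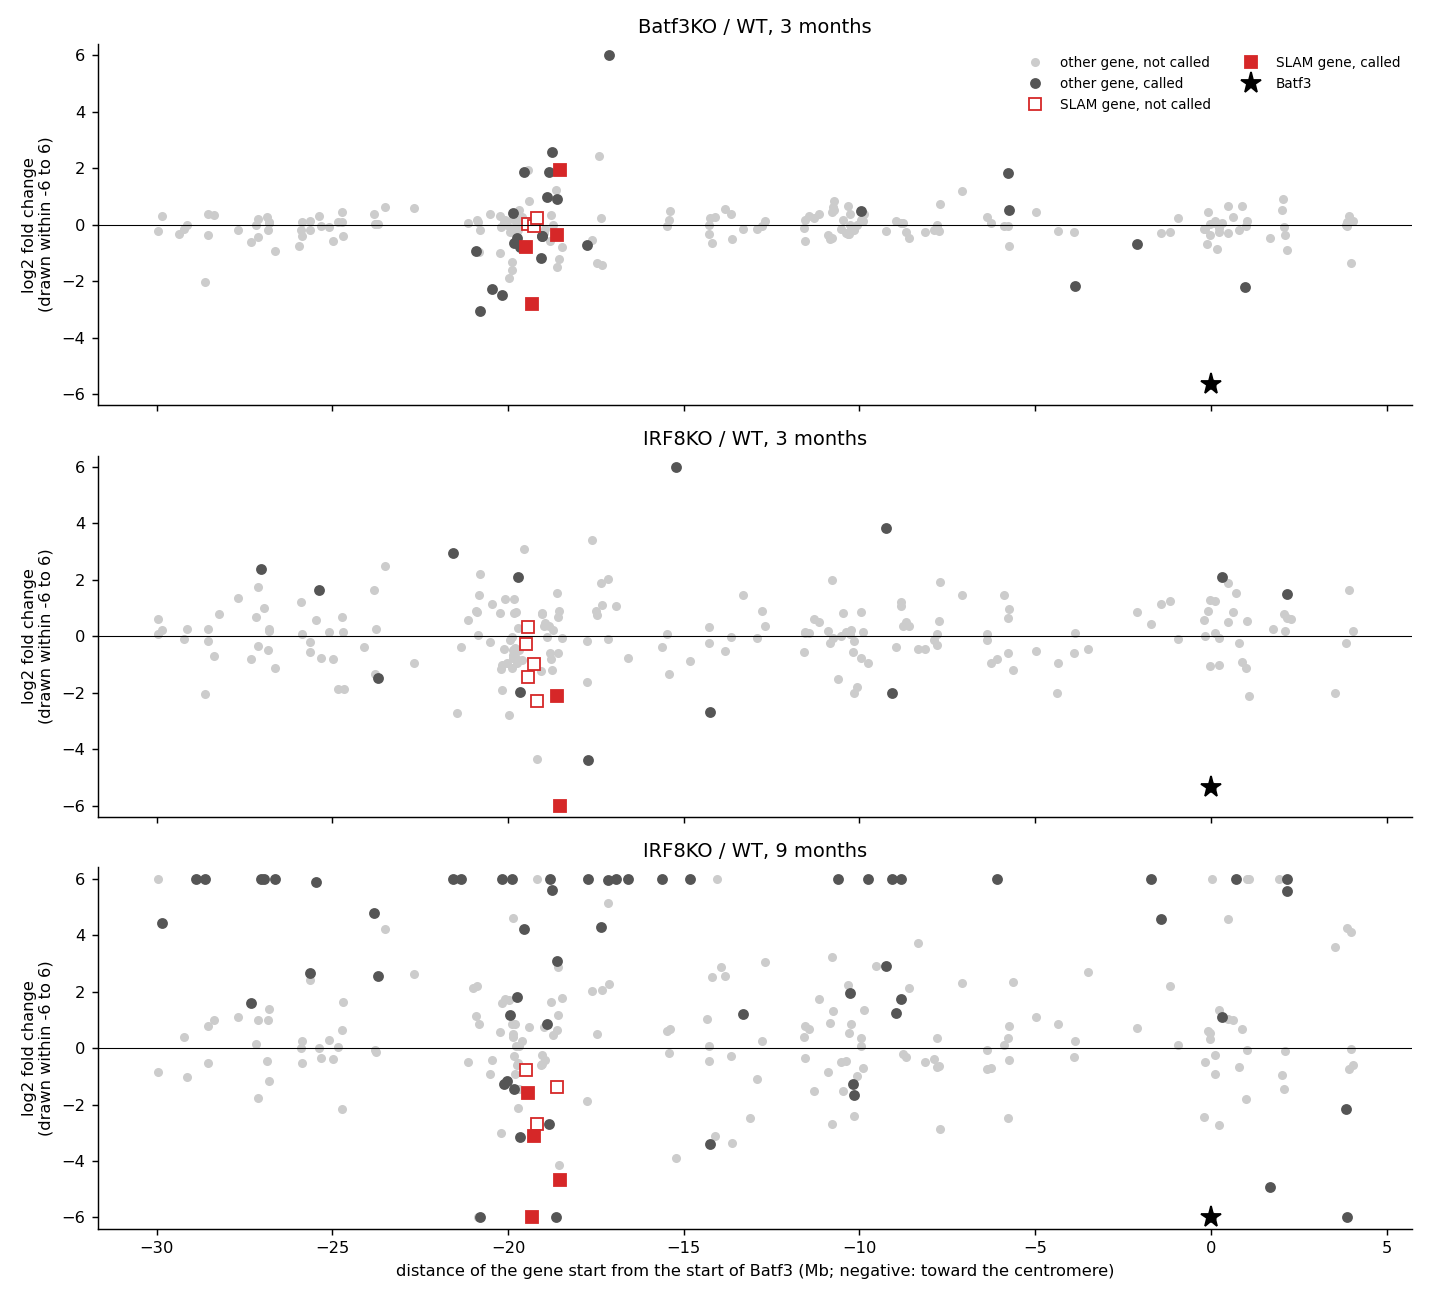
Log2 fold change of genes within 30 Mb of Batf3 against the distance of their start from that of Batf3, in 3 comparisons, with SLAM genes as squares and called genes filled. Values beyond 6 in either direction, which include genes with 0 counts in a group, are drawn at the edge. In Batf3KO filled points gather around the SLAM genes.

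**Figure D5:**
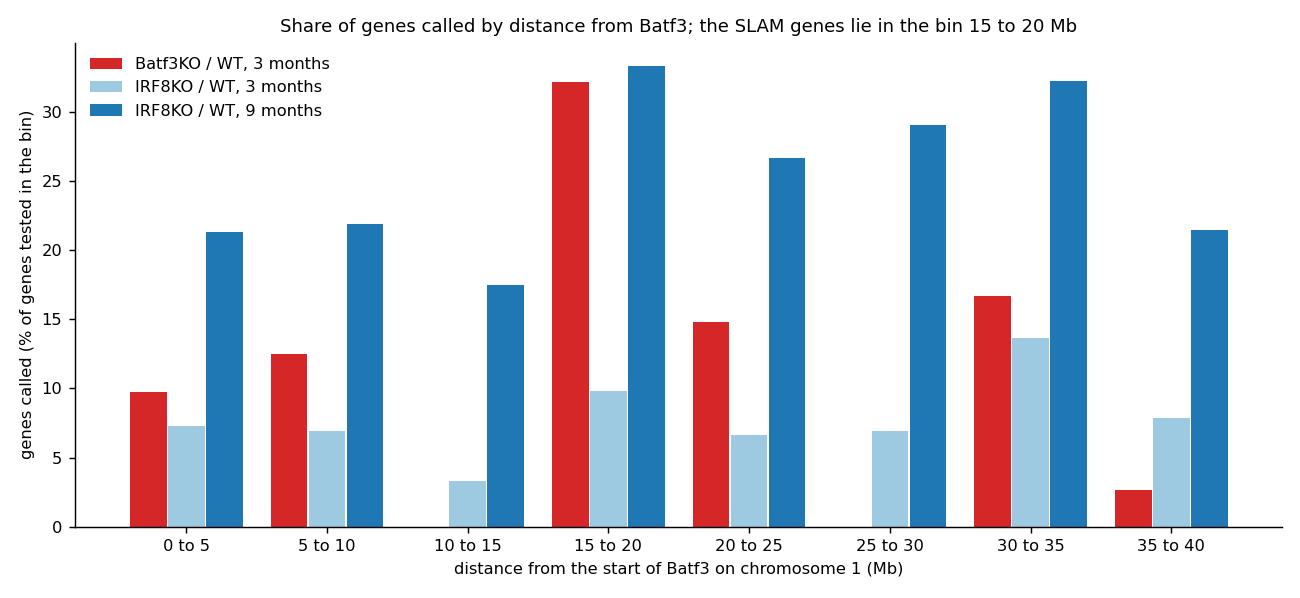
Share of tested genes that were called, in bins of 5 Mb by distance from Batf3, for 3 comparisons. In Batf3KO the bin of the SLAM genes reaches 32.1%, and at 9 months IRF8KO has 33.3% there amid high shares in all bins.

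Between the outermost SLAM genes, 7 of 17 other tested genes were called in Batf3KO (41.2%), 4 higher and 3 lower, beside 3.83% of all genes. Igsf8, an immunoglobulin-type partner of tetraspanins, rose from 219 ± 25.2 to 767 ± 76.5 CPM (log2 change 1.87 ± 0.0893 SE, edgeR adjusted p = 5.33e-08), a change of about the size of that of Slamf8. Kcnj10, a potassium channel gene, rose from 1.98 ± 0.42 to 11.5 ± 1.05 CPM (SD, n = 3 each). Pea15a and Tagln2 rose by 0.99 and 0.93 on the log2 scale. Vangl2, Ncstn and Copa fell by 1.18, 0.41 and 0.39 on that scale.

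In IRF8KO at 3 months 5 of 16 genes between the SLAM genes passed an unadjusted p under 0.05, and DESeq2 called 2. By edgeR 0 of these 16 were called, beside 7.39% of all genes. At 9 months 6 of 19 were (31.6%), near the 28.3% of all genes. Igsf8 was among them in the opposite direction, from 209.7 ± 23.0 to 36.1 ± 30.7 CPM (SD, n = 3 each, log2 change -2.69 ± 0.78 SE, adjusted p = 0.0224). Pea15a, Kcnj10 and Tagln2 were also among them, higher as in Batf3KO, with log2 changes of 0.8674, 5.597 and 3.096. Their edgeR adjusted p was 0.007076, 0.0008511 and 1.144e-05. At 3 months Igsf8 had 57.8 ± 11.6 CPM in WT and 78.1 ± 15.8 CPM in IRF8KO (SD, n = 4 each, edgeR adjusted p = 0.533). The SE of its log2 change was 0.31 there, against 0.0893 in Batf3KO. The 7 genes called in Batf3KO were compared, chosen by that call. At 3 months the Batf3KO and IRF8KO effects differed for 3 of them, beside 3.22% of all 16426 genes. They were Igsf8 (1.39 on the log2 scale, edgeR adjusted p = 0.0295), Kcnj10 (3.68, 0.0116) and Ncstn (-1.33, 0.0439). Vangl2, with a difference of 0.004, Copa, Pea15a and Tagln2 did not pass. Against IRF8KO at 9 months 3 of the 7 passed, beside 31.1% of all 14605 genes. They were Igsf8 (4.47, edgeR adjusted p = 0.0063), Kcnj10 (-3.12, 0.0198) and Tagln2 (-2.26, 0.000211). Loss of Batf3 and any other difference in the chromosome 1 segment carried with the targeted allele cannot be told apart within Batf3KO, and sequence variants were not analysed here.

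Of the genes of SLAM signalling, 1 of 17 tested was called in IRF8KO at 3 months, where 7.39% of all genes were. It was Cybb, which rose from 57.7 ± 32.6 to 829.9 ± 235.3 CPM (SD, n = 4 each; log2 change 3.77 ± 0.488 SE, edgeR adjusted p = 0.00178). At 9 months 9 of 16 were called, 5 higher and 4 lower, where 28.3% of all genes were called. Among these 9, Cybb (8.25), Cd244a (4.23) and Src (-3.90, a tyrosine kinase) had the largest log2 changes, followed by Fyn (1.93), the kinase that SAP recruits, and the phosphatase gene Ptpn11 (1.69). Inpp5d, a lipid phosphatase gene, had a log2 change of -2.78 and was not called (adjusted p = 0.0598). For Cd244a the WT libraries held 3.94, 4.67 and 3.11 CPM and those of IRF8KO 101.9, 85.4 and 64.6 CPM, opposite to its ligand Cd48. In 5xFAD/IRF8KO 5 of 16 were called against 5xFAD, all higher, where 27.8% of all genes were called. Neutrophil and monocyte genes moved with the rises of Cybb and Cd244a. The neutrophil shares are given above, and at 3 months the share of the 6 monocyte genes was 0.0483% to 0.257% for WT libraries and 0.592% to 1.41% for IRF8KO libraries. At 9 months the monocyte share was at most 0.000418% in WT, 0.626% to 1.53% in IRF8KO and 1.25% to 1.66% in 5xFAD/IRF8KO. Their part in these rises was not tested. In the conditional experiment and in 5xFAD against WT 0 were called by edgeR, with 2 and 1 at an unadjusted p under 0.05, and DESeq2 called 0 in each.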

How the data were processed

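For each of the 33 libraries the authors deposited raw read counts by gene, in 1 column that ignores strand and 1 for each strand. Alignment used STAR 2.5.2b on mm10, and Picard 2.17.11 and featureCounts are also named, per the submitters' processing notes. Libraries were made with the SMART-Seq v4 and Nextera XT kits without molecular identifiers, per the labels' protocols, so floors cover counting error only. The column that ignores strand was used. Summary lines for unassigned reads stayed out of library sizes, and counts in genes made up 47.3% to 78.6% of reads.

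Symbols, positions and exon lengths came from GENCODE M21 (GRCm38), which held 54079 of 54146 identifiers when versions were ignored. Samples were grouped by title and genotype label. Each comparison was fitted by edgeR 4.0.16 with its quasi-likelihood test (R 4.3.3), its default filter, TMM scaling and Benjamini-Hochberg adjustment over all genes, called at an adjusted p under 0.05. The 12 libraries aged 9 months shared 1 model, and differences between effects were fitted on the 4 groups concerned. The method was tested on simulated counts. CPM were scaled with TMM factors over all 33 libraries. Where a group had 0 counts, a fold is a bound from 3 counts over that group. Alternatives were DESeq2 1.42.0, limma 3.58.1 (voom with quality weights), other scaling and filters, other sets of libraries in the fit, a replicate block and each library left out.

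Replicate numbers were taken from the titles, and the deviations of same-numbered libraries did not correlate above 0.1 in every pair of any comparison, so the numbers were treated as names. The 8 genes, the partner and marker lists, the motifs and the rule for naming genes (all 8 members and Batf3, called partners, called genes between the outermost SLAM genes, and the 3 genes of most similar pattern for each member) were chosen with earlier results of these data known.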

Additional observations from a re-analysis of the deposited data

Results flagged for a closer look

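Each SLAM gene was examined within each group of 4 libraries where it had at least 30 counts. In 2 of these 21 sets 1 library stood far from the others, where chance gives about 1 in 20. Slamf1 had 2.7 CPM in WT replicate 3 of the IRF8KO experiment at 3 months and 0 counts in the other 3 libraries. With 3 libraries at 0 the gap is always the whole range, so this flag was fixed by the zeros. Slamf8 in the library labelled Cre replicate 1 stood at 0.476 CPM, and its gap to the next library was 0.844 of the range of that group.

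Effects of 2 genotypes differed by a test of the difference itself for several SLAM genes, with adjusted p-values of edgeR's quasi-likelihood test. Between Batf3KO and IRF8KO at 3 months this held for Slamf8 (0.000151), which was higher in 3 of 3 Batf3KO libraries and at 0 in 4 of 4 IRF8KO libraries. Between Batf3KO at 3 months and IRF8KO at 9 months it held for Cd48 (0.00232), Slamf8 (0.00698), Slamf1 (0.00759), Cd84 (0.0121) and Slamf9 (0.0306). Between Batf3KO and the libraries labelled Cre it held for Slamf1 (0.0128) and Slamf6 (0.0257).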

How the results depend on the processing

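Counts of SLAM genes called were recomputed under each alternative. In the order Batf3KO, IRF8KO at 3 months, IRF8KO at 9 months, 5xFAD, 5xFAD/IRF8KO against 5xFAD, 5xFAD/IRF8KO against IRF8KO, the interaction and Cre against flox, the counts were 4, 2, 4, 0, 4, 0, 0 and 0, and leaving out 1 library at a time gave 2 to 3, 1 to 4, 3 to 5, 0 to 0, 4 to 5, 0 to 1, 0 to 1 and 0 to 4. For the differences of the Batf3KO effect from IRF8KO at 3 months, from IRF8KO at 9 months and from Cre, for IRF8KO at 9 against 3 months and for the 2 WT groups, the counts were 1, 5, 2, 0 and 1, with 1 to 4, 4 to 6, 1 to 6, 0 to 2 and 0 to 2 without 1 library. Where a group was left with fewer libraries, the spread was pooled over the groups of the fit.

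DESeq2 gave 5 for IRF8KO at 3 months, 1 for 5xFAD, 1 for 5xFAD/IRF8KO against IRF8KO, 2 for Cre, 3 for Batf3KO against IRF8KO at 3 months and 2 for the WT groups. limma voom gave 5 for IRF8KO at 3 months, 3 for 5xFAD, 1 for Cre, 2 for Batf3KO against IRF8KO at 3 months, 4 for Batf3KO against Cre, 1 for IRF8KO at 9 against 3 months and 3 for the WT groups. One model of all 33 libraries gave 0 for Batf3KO, 3 for 5xFAD/IRF8KO against IRF8KO, 2 for the interaction, 2 for Batf3KO against IRF8KO at 9 months, 0 for Batf3KO against Cre, 2 for IRF8KO at 9 against 3 months and 2 for the WT groups. Without a filter on low counts the count was 4 for IRF8KO at 3 months, 2 for 5xFAD/IRF8KO against IRF8KO, 2 for the interaction, 4 for Cre, 2 for Batf3KO against IRF8KO at 3 months, 6 for Batf3KO against Cre and 2 for IRF8KO at 9 against 3 months. Only WT and 5xFAD in the fit gave 4 for 5xFAD. With the replicate block the count was 2 for Batf3KO against IRF8KO at 3 months and 1 for IRF8KO at 9 against 3 months, and Slamf9 was no longer called in Batf3KO (adjusted p = 0.147) or in IRF8KO at 3 months (0.0519). No paired analysis was possible for the 2 WT groups because they come from different experiments. The cause of these differences was not tested.

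The share of genes called 15 to 20 Mb from Batf3 was 32.1% and became 19.1% in bins of 10 Mb. Of 1516 comparisons of a single gene with an alternative, 1376 kept their side of the threshold, 47 lost a call and 93 gained one, and 0 called values changed sign, while 56 that were called in neither fit did. Of 160 group levels, 15 moved by more than 1 SD under other scaling. Depth limits Slamf1 and Slamf7, which had 0 counts in many libraries.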

Other observations

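For each SLAM gene, the genes whose level was most alike over the 10 group means are given by Pearson's r of log2(CPM + 1) among 14062 genes with at least 5 CPM in 1 group. These are descriptions over 10 points that share libraries, scaling and library content, and no test was made. Slamf8 was most like Akirin2 (0.987), Mpeg1 (0.961) and Cyp27a1 (0.954). Slamf6 was most like Lap3 (0.966), Ctsh (0.926) and Mpi (0.925). Cd84 was most like Rab3ip (0.978), Naaa (0.956) and Zfp940 (0.953). Cd48 was most like Zeb2os (0.967), Ccl12 (0.962) and Ndfip1 (0.955).

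Slamf9 was most like Renbp (0.978), Lefty1 (0.978) and Dhrs7b (0.9748). Slamf1 was most like Maml2 (0.935), Mr1 (0.928) and Ccdc17 (0.921), and Ly9 was most like P3h4 (0.934), Rnf126 (0.92) and Fastk (0.902). Slamf7, which was near 0 in most groups, was most like Gdpd2 (0.985), Cth (0.984) and Olfr287 (0.984).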
